A study of Mus musculus with 6 samples.

Results

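The genes described here are 6 transcription factors of the trophectoderm (Cdx2, Eomes, Gata3, Elf5, Tfap2c and Tead4) and 4 keratins of simple epithelia (Krt7, Krt8, Krt18 and Krt19), followed in mouse iPSCs that differed in when they received 3i. The members were taken as every probe set whose array annotation names 1 of these 10 genes alone, which gave 18 probe sets of the 45037 analysed. The (+)/(+) iPSCs (clones 4, 5 and 6) received 3i while they were being reprogrammed and again during maintenance. The (−)/(+) iPSCs (clones 1, 2 and 3) received 3i only once colonies had been picked. 3i combines CHIR99021, which inhibits GSK3, with PD184352, which inhibits MEK, and SU5402, which inhibits the FGF receptor. Both groups were made from embryonic fibroblasts of mice carrying the Nanog-GFP-IRES-Puro transgene, by retroviral Oct3/4, Sox2, Klf4 and c-Myc together with dsRed, and both were grown on SNL feeder cells. All 6 clones were therefore under 3i when RNA was taken, in the undifferentiated state, and each clone was measured on 1 array.

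The trophectoderm is the outer epithelium of the blastocyst and gives rise to the trophoblast of the placenta. In its outer cells Hippo signalling is low, Yap1 enters the nucleus and joins Tead4, and Cdx2 and Gata3 are switched on. Eomes, Elf5 and Tfap2c then hold trophoblast stem cells in their state, and FGF signalling through ERK is needed for their self-renewal. Krt8 (type II) and Krt18 (type I) pair into the first keratin filaments of the mouse embryo, and Krt7 (type II) and Krt19 (type I) join them in trophoblast and other simple epithelia. Pluripotent cells keep the trophoblast programme off, in part through Pou5f1, which opposes Cdx2.

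A signal here is the intensity of a probe set on a linear scale, as the authors scaled it, and signals of different probe sets are not comparable in level. Fold changes are (+)/(+) over (−)/(+) differences of log2(signal + 16), on which changes of low signals come out too small, and values with ± are the mean and SD of the 3 clones of a group. Tested with limma were the 22518 probe sets in the brighter part of the 45037, whose mean log2 values lay above the median (a signal of about 67.2), and they were called at a Benjamini-Hochberg adjusted p under 0.05. The median signal of an array was 64.1 to 70.2 in the (+)/(+) clones and 74.3 to 75.7 in the (−)/(+) clones, although every array had been scaled to the same trimmed mean. The 5 markers of pluripotent cells summed to signals between 44228 and 45133 in the (+)/(+) clones and between 40007 and 41666 in the (−)/(+) clones. None of the 5 passed with limma, and they went both ways. Their log2 fold changes were 0.42 for Zfp42, 0.23 for Nanog, 0.10 for Sox2, −0.04 for Pou5f1 and −0.34 for Utf1. The groups did not overlap in 2 of the 5, both higher, beside 10.5% of all tested probe sets higher. The 3 clones in each group limit the precision, each p-value measures the spread between these clones only, and a batch that followed the groups cannot be told apart from them.

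Krt8 and Krt18 had higher signals in the (+)/(+) clones, by 0.57 to 0.90 on the log2 scale, but none of their probe sets passed the adjusted threshold. Krt19 and 1 of the 2 Cdx2 probe sets had lower signals in every (+)/(+) clone than in any (−)/(+) clone, but both were too dim to be tested. Eomes, Tfap2c and Krt7 overlapped between the groups, and so did Gata3 and Elf5, which were below the filter. Of the 18 probe sets, 11 from 6 genes were bright enough to be tested, and 0 of these 11 passed with limma, while 3.12% of all tested probe sets passed (1.35% higher and 1.77% lower). At an unadjusted p under 0.05 there were 4, all higher (the 3 probe sets of Krt8 and the 1 of Krt18), beside 21.2% of all tested probe sets in either direction and 8.4% higher. The groups did not overlap in 3 of the 11, all higher, beside 27.1% of all tested probe sets in either direction and 10.5% higher. Among the 7 probe sets below the filter the groups did not overlap in 2, both lower, beside 16.6% lower among the tested ones, which are brighter. The share among all probe sets below the filter was not counted. The median log2 fold change of the 11 was 0.24, beside −0.05 over all tested probe sets, and 6 of the 11 were positive.

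**Figure D1:**
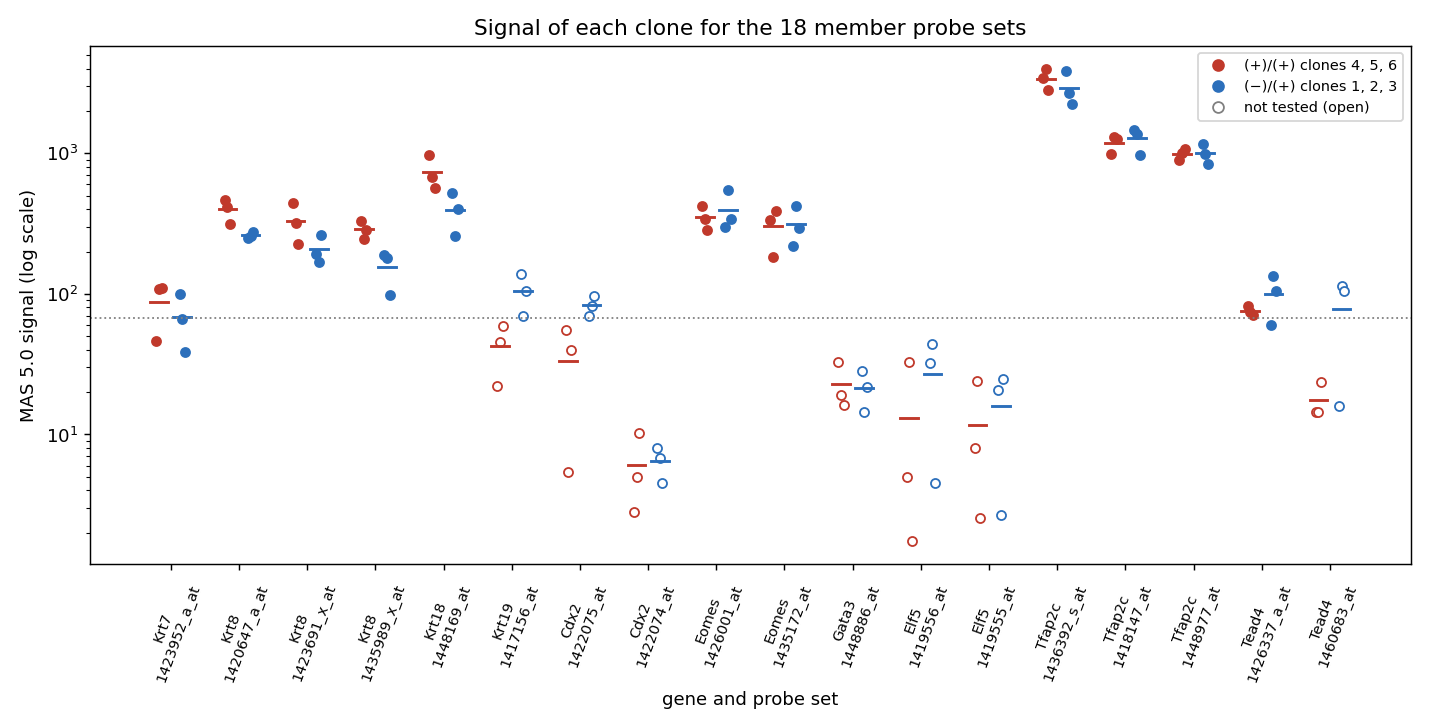
Signal of each member probe set (vertical axis, log scale) in the 3 (+)/(+) clones and the 3 (−)/(+) clones, with 1 point per clone, a bar at the group mean and a dotted line at a signal of 67.2, near which the filter on low values lies. The groups are apart for Krt18 and for 2 of the 3 Krt8 probe sets, and for Krt19 and 1 Cdx2 probe set in the other direction.

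Krt8 and Krt18 lie next to each other on chromosome 15, on opposite strands with their starts facing each other. In GRCm38.p6, Krt8 is on the minus strand at chr15:101996711-102004342 and Krt18 on the plus strand at chr15:102028216-102032026, with 23873 bases between them. Krt7 is at chr15:101412403-101427806, and 568904 bases lie between its end and Krt8. The windows below run 250 bases before to 50 after the annotated start of each gene, from RefSeq on GRCm38.p6, and are shown because the 3 genes share a chromosome region and a role in the filament. Capitals mark matches on either strand to the motifs of a TATA box, of GATA factors, of ETS factors (Elf5 among them) and of AP-2 factors (Tfap2c among them), whose letters are given after the sequences.
Krt8, minus strand, chr15:102004293-102004592: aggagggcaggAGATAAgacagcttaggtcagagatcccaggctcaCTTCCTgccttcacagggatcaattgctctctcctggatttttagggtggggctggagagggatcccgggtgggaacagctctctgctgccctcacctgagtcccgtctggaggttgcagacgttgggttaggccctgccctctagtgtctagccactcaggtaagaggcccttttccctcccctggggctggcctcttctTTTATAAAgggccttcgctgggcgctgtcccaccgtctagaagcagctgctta
Krt18, plus strand, chr15:102027966-102028265: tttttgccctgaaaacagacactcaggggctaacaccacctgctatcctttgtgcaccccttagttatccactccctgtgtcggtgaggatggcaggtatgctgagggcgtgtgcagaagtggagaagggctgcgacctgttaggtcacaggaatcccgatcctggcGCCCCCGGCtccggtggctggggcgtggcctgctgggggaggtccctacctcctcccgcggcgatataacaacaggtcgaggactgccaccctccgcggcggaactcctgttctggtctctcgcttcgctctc
Krt7, plus strand, chr15:101412153-101412452: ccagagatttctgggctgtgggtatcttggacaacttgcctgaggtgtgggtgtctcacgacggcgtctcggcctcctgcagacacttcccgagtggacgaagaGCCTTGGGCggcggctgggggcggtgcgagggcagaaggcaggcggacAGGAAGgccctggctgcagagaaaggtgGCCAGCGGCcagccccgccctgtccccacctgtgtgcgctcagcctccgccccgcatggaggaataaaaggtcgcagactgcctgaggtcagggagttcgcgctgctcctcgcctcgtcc

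Counting the annotated start as +1, the Krt8 window held the GATA motif AGATAA at positions −239 to −234, the ETS motif AGGAAG on the reverse strand at −204 to −199, and the TATA box TATAAA on both strands in overlapping matches from −3 to 5, at the annotated start itself. The Krt18 window held 1 match to the AP-2 motif GCCNNNGGC, at −83 to −75. The Krt7 window held 2 AP-2 matches, at −146 to −138 and −70 to −62, and AGGAAG at −98 to −93. Of the 32817 windows of this length in the table, 13.6% held the TATA box on either strand, 11.2% the GATA motif, 35.4% the ETS motif and 16.6% the AP-2 motif. None of the 3 windows held GGAATG (TEAD factors), GGTGTGA (T-box factors, Eomes among them) or TTTATNG (CDX factors), which occurred in 14.7%, 3.98% and 10.9% of windows. A match of letters is no evidence of binding, and the absence of a match covers only these 300 bases.

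Krt18, the type I partner, had the largest log2 fold change of the tested members, on 1448169_at. Its signal was 972, 674 and 571 in (+)/(+) clones 4, 5 and 6, against 522, 260 and 399.8 in (−)/(+) clones 1, 2 and 3. The groups did not overlap, although the lowest (+)/(+) clone, clone 6, lay close to the highest (−)/(+) clone, clone 1. The means were 739 ± 208 in the (+)/(+) clones and 394 ± 131 in the (−)/(+) clones, a log2 fold change of 0.90 (SE 0.25, 95% interval 0.34 to 1.46) with a limma adjusted p of 0.079.

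Krt8, the type II partner, has 3 probe sets. On 1420647_a_at its signal was 469, 416 and 316 in (+)/(+) clones 4, 5 and 6, against 249.7, 258 and 275 in (−)/(+) clones 1, 2 and 3. The groups did not overlap, the (−)/(+) clones lay close together, and clone 4 was highest, as it was for Krt18. The means were 400.3 ± 77.6 in the (+)/(+) clones and 261 ± 12.7 in the (−)/(+) clones, and the log2 fold change was 0.57 (SE 0.17, interval 0.20 to 0.94) with a limma adjusted p of 0.091.

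On the Krt8 probe set 1435989_x_at the signal was 328, 247 and 286 in (+)/(+) clones 4, 5 and 6, against 188, 180.4 and 98.4 in (−)/(+) clones 1, 2 and 3. The groups again did not overlap, and clone 3 stood lowest. The log2 fold change was 0.86 (SE 0.23, interval 0.35 to 1.38) with a limma adjusted p of 0.073. On 1423691_x_at the signal was 442, 317 and 226 in (+)/(+) clones 4, 5 and 6, against 193, 169 and 262 in (−)/(+) clones 1, 2 and 3. Here clone 3 lay above clone 6, so the groups overlapped, and the log2 fold change was 0.59 (SE 0.24, interval 0.06 to 1.13) with a limma adjusted p of 0.197. By its suffix, an _x_at probe set holds probes that can also match other transcripts, so both of these sets are less certain to be Krt8 alone than 1420647_a_at, whose suffix marks alternative transcripts of 1 gene.

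All 4 probe sets of Krt8 and Krt18 kept a positive log2 fold change in each alternative that was run on them, between 0.29 and 1.12. The adjusted p crossed the threshold in some settings. Without (−)/(+) clone 1 it was 0.034 for Krt18 and 0.0496 for Krt8 1435989_x_at, and with the arrays scaled to a common median it was 0.043 for Krt18 and 0.036 and 0.042 for Krt8 1435989_x_at and 1420647_a_at. The common median also moved the median log2 fold change of all tested probe sets to 0.10, against −0.05 as scaled by the authors. Taken relative to these medians, Krt18 differed by 0.96 with the common median and 0.95 as scaled by the authors, and Krt8 1435989_x_at by 0.91 in both.

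**Figure D2:**
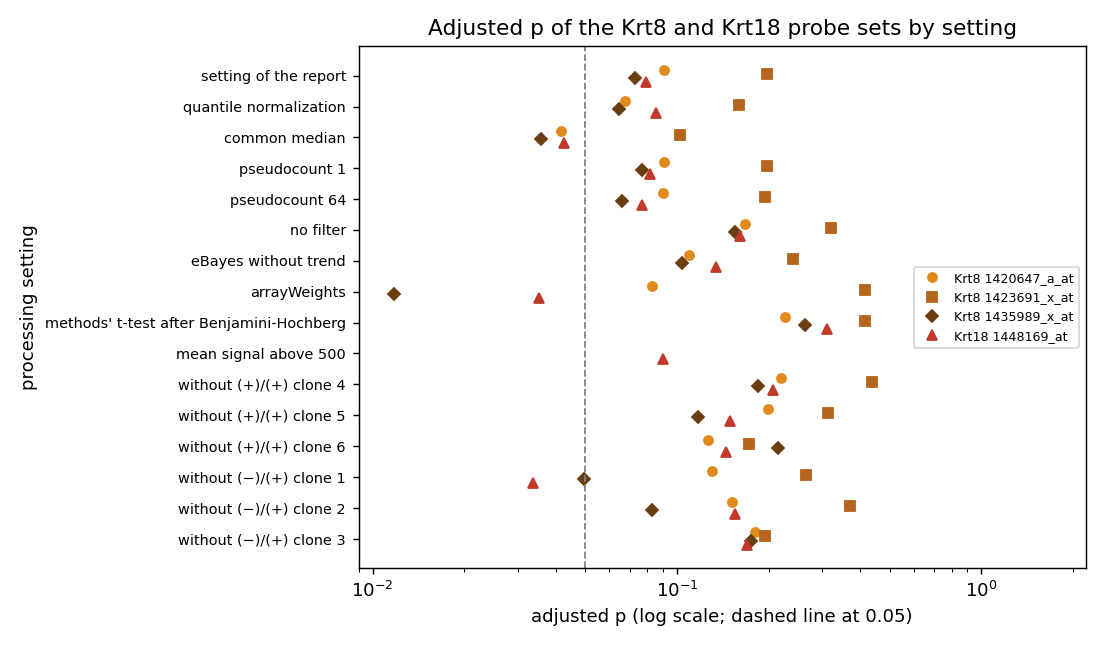
Limma adjusted p (horizontal axis, log scale; in 1 row from the test of the methods) of the 3 Krt8 probe sets and the Krt18 probe set in each processing setting (rows), with a dashed line at 0.05. Points lie left of the line with a common median, with arrayWeights and without (−)/(+) clone 1, and right of it in the setting of the report.

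Krt7, another type II keratin of simple epithelia and of trophoblast, did not separate the groups on 1423952_a_at. Its signal was 46.0, 108 and 109 in (+)/(+) clones 4, 5 and 6, against 99.8, 66.5 and 38.6 in (−)/(+) clones 1, 2 and 3. The groups overlapped almost fully, with a low clone in each. The log2 fold change was 0.29 (SE 0.34, interval −0.47 to 1.06) with a limma adjusted p of 0.66, an interval that also holds the estimates of Krt8 and Krt18.

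Krt19, the small type I keratin, ran the other way at a low level on 1417156_at. Its signal was 22.1, 45.7 and 58.8 in (+)/(+) clones 4, 5 and 6, against 139, 69.4 and 105 in (−)/(+) clones 1, 2 and 3. The groups did not overlap, with clone 4 lowest and clone 1 highest. The log2 difference was −1.06, and the means were 42.2 ± 18.6 in (+)/(+) clones and 104 ± 34.8 in (−)/(+) clones. Its mean log2 value of 6.34 lay just under the filter at 6.38, so it was not tested there, and the exact permutation test over clones (two-sided) gave p = 0.1, the smallest that 3 clones against 3 allow. With no filter, limma gave an adjusted p of 0.207.

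Around Krt19, on chromosome 11 at chr11:100140810-100145926, the signals of clone 1 were raised. Neighbours were taken from tested genes with a mean signal above 500, 10 on each side. These 20 genes had a median deviation of 0.39 on the log2 scale in clone 1. The 502 genes of the chromosome above that signal had a median of 0.27. In the other 5 clones the neighbours' medians lay between −0.11 and 0.08, and what this adds to the Krt19 difference was not tested. Without clone 1 the log2 difference of Krt19 was −0.86, with a limma adjusted p of 0.345 with no filter. Around Krt7, Krt8 and Krt18 the same medians lay between −0.03 and 0.02 in all 6 clones.

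**Figure D3:**
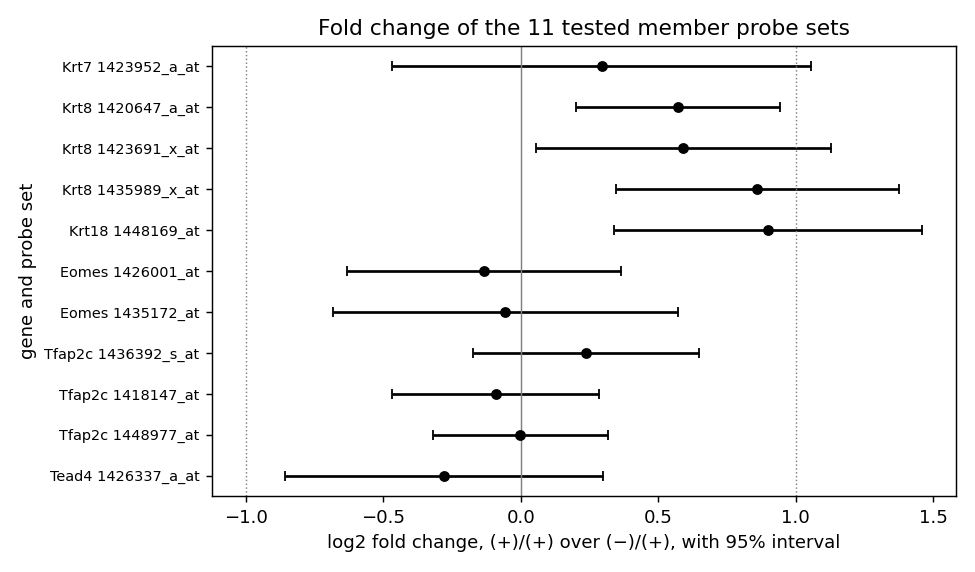
Log2 fold change of (+)/(+) over (−)/(+) (horizontal axis) of the 11 tested member probe sets (rows), as points with 95% intervals from limma, with dotted lines at a doubling and at its inverse. The intervals of the 3 Krt8 probe sets and of Krt18 lie above 0, and the other 7 span 0.

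Tead4, the TEAD factor that acts upstream of Cdx2 in the outer cells, has 2 probe sets at chr6:128227143-128300813. On 1426337_a_at its signal was 81.9, 74.1 and 70.6 in (+)/(+) clones 4, 5 and 6, against 59.7, 133 and 105 in (−)/(+) clones 1, 2 and 3. The groups overlapped, since clone 1 was lowest while clones 2 and 3 were highest. The log2 fold change was −0.28 (SE 0.26, interval −0.86 to 0.30) with a limma adjusted p of 0.57. The dimmer probe set 1460683_at had 14.5, 14.4 and 23.5 in (+)/(+) clones 4, 5 and 6, against 15.9, 114 and 105 in (−)/(+) clones 1, 2 and 3. It showed the same split inside the (−)/(+) group, with clone 1 among the (+)/(+) clones, and its log2 difference was −1.26 (limma adjusted p 0.303 with no filter). Leaving out single clones, an alternative added after the data were seen, put that difference between −0.90 and −1.92, with an adjusted p of 0.043 without clone 1, the (−)/(+) clone that was low, and of 0.457 to 0.557 without any other clone. The 20 neighbours of Tead4, taken by the same rule as for Krt19, had a median deviation of 0.19 in clone 2 and between −0.07 and −0.01 in the other 5 clones. Their part in the Tead4 signals was not tested.

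Cdx2, the homeobox factor that sets trophectoderm identity, lies at chr5:147300900-147307249 and was dim on both of its probe sets. On 1422075_at its signal was 55.4, 5.40 and 39.9 in (+)/(+) clones 4, 5 and 6, against 69.7, 82.1 and 96.7 in (−)/(+) clones 1, 2 and 3. The groups did not overlap, and clone 5 was far below the others. The log2 difference was −1.16 (exact permutation p = 0.1, the smallest possible), and limma with no filter gave an adjusted p of 0.266. On 1422074_at the signal was 2.82 to 10.3 in the (+)/(+) clones and 4.48 to 8.06 in the (−)/(+) clones, which overlapped.

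Gata3, the GATA factor switched on beside Cdx2, was at 33.0, 19.1 and 16.3 in (+)/(+) clones 4, 5 and 6, against 28.3, 14.4 and 21.8 in (−)/(+) clones 1, 2 and 3 on 1448886_at. Elf5, an ETS factor of trophoblast stem cells, was at 5.00, 32.8 and 1.76 in (+)/(+) clones 4, 5 and 6, against 32.0, 43.7 and 4.51 in (−)/(+) clones 1, 2 and 3 on 1419556_at. The groups overlapped for both genes. The other Elf5 probe set, 1419555_at, spanned 2.53 to 24.2 in the (+)/(+) clones and 2.67 to 24.8 in the (−)/(+) clones. All 3 probe sets lay under the filter and were not tested.

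Eomes, the T-box factor needed for trophoblast stem cells, lies at chr9:118478186-118486132 and was bright enough to be tested on both of its probe sets. On 1426001_at its signal was 421, 341 and 286 in (+)/(+) clones 4, 5 and 6, against 299, 544 and 338 in (−)/(+) clones 1, 2 and 3. The groups overlapped, with clone 2 highest. The log2 fold change was −0.13 (interval −0.63 to 0.36) with a limma adjusted p of 0.77. On 1435172_at the signal was 338, 184 and 386 in (+)/(+) clones 4, 5 and 6, against 220.3, 422 and 293 in (−)/(+) clones 1, 2 and 3. Clone 2 was again highest, the groups overlapped, and the log2 fold change was −0.06 (interval −0.68 to 0.57) with a limma adjusted p of 0.93.

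Tfap2c, an AP-2 factor of trophoblast that is also active in primordial germ cells and naive pluripotent cells, was well above the filter on 3 probe sets. On 1418147_at its signal was 997, 1304 and 1262 in (+)/(+) clones 4, 5 and 6, against 1473, 1379.6 and 979 in (−)/(+) clones 1, 2 and 3. On 1448977_at the signal was 897, 1009 and 1067 in (+)/(+) clones 4, 5 and 6, against 1170.4, 982 and 843 in (−)/(+) clones 1, 2 and 3. In both, clone 1 was highest and the groups overlapped. The log2 fold changes were −0.09 (interval −0.47 to 0.28) and 0.00 (interval −0.32 to 0.32), so changes of more than about 0.47 in either direction lie outside both intervals. On 1436392_s_at, whose suffix marks probes shared by several transcripts, the signal was 3448, 3945 and 2814 in (+)/(+) clones 4, 5 and 6, against 3822, 2699 and 2256 in (−)/(+) clones 1, 2 and 3. These groups overlapped as well, with a log2 fold change of 0.24 (interval −0.17 to 0.65) and a limma adjusted p of 0.49. Tfap2c lies at chr2:172545678-172558622, Gata3 at chr2:9857078-9887953 and Elf5 at chr2:103412098-103450989.

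Beyond the 10 genes, other trophectoderm and trophoblast genes showed no calls in either direction. Of 28 listed genes, 25 had a probe set of their own and 20 were tested, of which 0 passed with limma, 3 had an unadjusted p under 0.05 and were higher, and 2 were lower. Over all 11177 tested genes, 20.9% had an unadjusted p under 0.05 (8.75% higher and 12.1% lower), and 1.55% passed higher and 1.41% lower. Their median log2 fold change was −0.08, beside −0.05 over all tested genes. The brightest were Atp1b1, a subunit of the sodium pump that drives blastocoel filling (5023 ± 619 in (+)/(+) clones and 5161 ± 458 in (−)/(+) clones), Aqp3, a water channel (2689 ± 556 in (+)/(+) and 2571 ± 317 in (−)/(+) clones), and Esrrb, a nuclear receptor used by trophoblast stem cells and naive pluripotent cells (2245 ± 121 in (+)/(+) and 2578 ± 695 in (−)/(+) clones). None of the 3 differed beyond its spread between clones. Sox21 (log2 fold change 0.85, limma adjusted p 0.061), Msx2 (0.69, 0.086), Id2 (0.45, 0.092) and Tfap2a (−0.88, 0.084) had the 4 smallest p in this list and were chosen after their values were seen.

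The Hippo pathway, which holds Yap1 out of the nucleus, and the TEAD cofactors had no call in the setting of the report. Of 19 listed genes, 18 were tested and 0 passed with limma in either direction, while 6 had an unadjusted p under 0.05, all lower, beside 12.1% of all tested genes lower at that level, and the median log2 fold change was −0.17. Tead1, a TEAD factor present in pluripotent cells, averaged 3251 ± 497 in the (+)/(+) clones and 4331 ± 442 in the (−)/(+) clones, a log2 fold change of −0.42 with a limma adjusted p of 0.10. Yap1, the cofactor (3101 ± 152 in (+)/(+) clones and 3265 ± 178 in (−)/(+) clones), and Stk4, a Hippo kinase (3405 ± 121 in (+)/(+) and 3511 ± 26.4 in (−)/(+) clones), differed by −0.07 and −0.04 on the log2 scale, and by 0.085 and 0.11 with a common median.

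Other keratins were mostly below the filter. Of 26 listed, 25 were measured and 4 tested, 0 passed with limma or had an unadjusted p under 0.05, and their median log2 fold change was −0.03. Krt42 averaged 869.6 ± 154 in the (+)/(+) clones and 914 ± 196 in the (−)/(+) clones, Krt10 averaged 314 ± 64.5 in (+)/(+) and 290.0 ± 33.8 in (−)/(+) clones, and Krt79 averaged 87.3 ± 20.3 in (+)/(+) and 85.1 ± 2.64 in (−)/(+) clones. These 3 overlapped between the groups. Krt5, the fourth tested keratin of the list and named after its values were seen, averaged 71.2 ± 1.22 in (+)/(+) and 88.0 ± 15.8 in (−)/(+) clones without overlap, with a log2 fold change of −0.24 and a limma adjusted p of 0.53. Genes of epithelial junctions and of keratin anchoring gave 0 calls among 29 tested of 33 listed, with 5 lower and 0 higher at an unadjusted p under 0.05 (12.1% and 8.75% of all tested genes) and a median of −0.05. Cdh1, the cadherin of epithelial and pluripotent cells, averaged 9618 ± 2181 in the (+)/(+) clones and 7840 ± 1383 in the (−)/(+) clones (log2 fold change 0.29, limma adjusted p 0.34), and Epcam, an epithelial adhesion molecule, averaged 3747 ± 408 in (+)/(+) and 4735 ± 945 in (−)/(+) clones (−0.32, 0.23).

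Among 14 genes that keep the trophoblast programme off in pluripotent cells, 1 passed with limma, and it fell, beside 1.41% of all tested genes lower. This was Uhrf1, the factor that brings Dnmt1 to newly copied DNA, with 5342 ± 178 in the (+)/(+) clones and 7408 ± 799 in the (−)/(+) clones, a log2 fold change of −0.47 (SE 0.10) and an adjusted p of 0.036. The call was lost without any single one of clones 2 to 6 (adjusted p 0.075 to 0.155) and under 4 other settings of those run on its probe set, with the same direction throughout. At an unadjusted limma p under 0.05, 3 of the 14 were lower (Uhrf1, Dnmt1 and Ehmt2) and 1 was higher (Nanog). Over all tested genes these shares were 12.1% lower and 8.75% higher. Named after their values were seen, Nanog had a log2 fold change of 0.23, Sox2 0.10, Sall4 0.03 and Pou5f1 −0.04. The median of the 14 was −0.12, beside −0.05 over all tested genes.

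**Figure D4:**
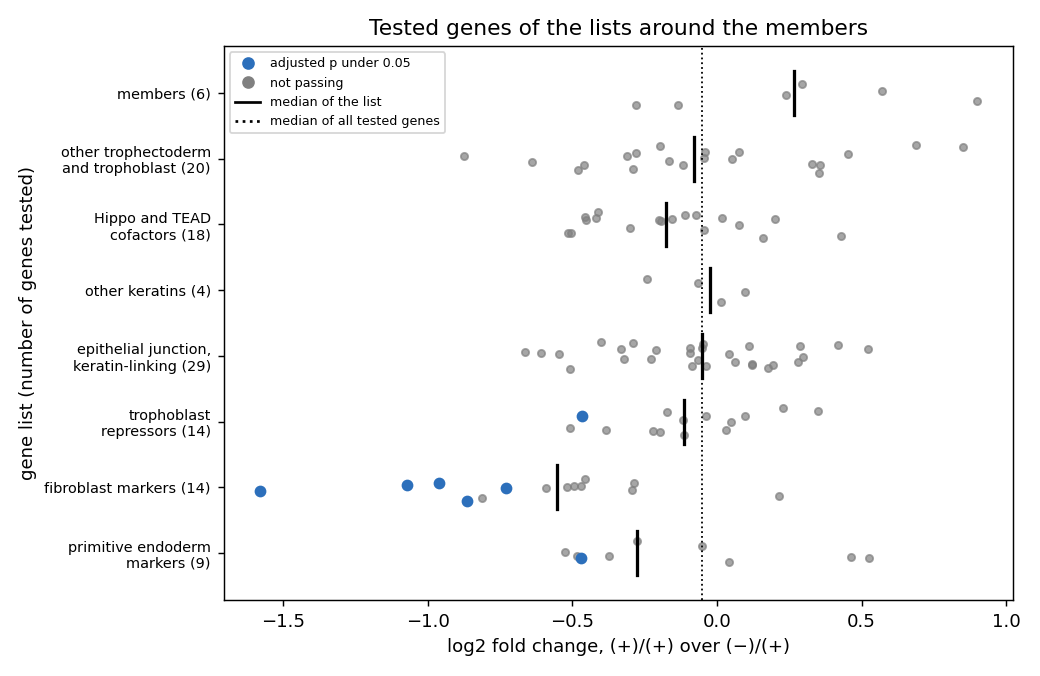
Log2 fold change of (+)/(+) over (−)/(+) (horizontal axis) of each tested gene in the members and in each list (rows), with 1 point per gene and a bar at the median. The medians of the lists around the members run from −0.17 (Hippo and TEAD cofactors) to −0.03 (other keratins), beside −0.05 over all tested genes. The medians of the fibroblast markers (−0.55) and of the primitive endoderm markers (−0.28) are lower, and genes of both lists lie on either side of 0.

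Some markers of other cell types moved between the same groups. All 6 measured markers of 2-cell-like cells rose, beside 1.55% of all tested genes higher. Their summed signals were 27174 to 35587 in the (+)/(+) clones and 4515 to 9639 in the (−)/(+) clones. Of 14 tested fibroblast markers, 5 fell and 0 rose, beside 1.41% of all tested genes lower and 1.55% higher. The summed signals of the 16 measured fibroblast markers were 13237 to 15040 in the (+)/(+) clones and 20837 to 28926 in the (−)/(+) clones. Vim was the largest part of these sums (7012 ± 642 in (+)/(+) and 12897 ± 2320 in (−)/(+) clones). Col1a2, a fibrillar collagen, fell by 1.58 on the log2 scale (limma adjusted p 0.0043). Vim, an intermediate filament protein of mesenchymal cells, fell by 0.87 (0.011), S100a6 fell by 0.73 (0.019) and Col3a1 fell by 1.07 (0.027). At an unadjusted limma p under 0.05, 11 of the 14 were lower and 0 higher, beside 12.1% and 8.75% of all tested genes. Named after their values were seen, Postn was higher by 0.22 and Dcn and Twist1 were each lower by 0.29, with overlapping groups. Lum, which was not tested, had a log2 difference of 0.12 and overlapped. The count of fallen fibroblast markers was 4 without clone 2, 2 without clone 3, 4 or 5, 1 without clone 6, 6 without clone 1, and 0 to 8 in the other settings (1 with eBayes without trend). Of all tested probe sets, 0.11% to 2.29% passed lower without single clones, and up to 10.8% in the other settings. The log2 fold changes stayed between −1.44 and −1.72 for Col1a2, −0.75 and −1.01 for Vim, −0.65 and −0.87 for S100a6 and −0.90 and −1.23 for Col3a1 when single clones were left out, and the summed signals did not overlap between the groups. None of the fibroblast markers was listed at 0, but Col1a1 and Lum, a collagen chain and a matrix proteoglycan, were below the filter. Of 9 tested markers of primitive endoderm, the layer next to the blastocyst cavity, 1 fell and 0 rose, beside 1.41% of all tested genes lower and 1.55% higher. Sparc, a matrix protein, was the 1 that fell, and averaged 2611 ± 123 in (+)/(+) and 3629 ± 298 in (−)/(+) clones (limma adjusted p 0.039, and 0.061 to 0.159 without single clones). The other tested markers of this list went both ways and did not pass. Log2 fold changes were positive for Sox17 (0.53), Gata6 (0.46) and Col4a1 (0.04). They were negative for Amn (−0.52), Gata4 (−0.48), Lamb1 (−0.37), Lama1 (−0.28) and Col4a2 (−0.05). The summed signals of the 14 measured primitive endoderm markers were 5120 to 7346 in the (+)/(+) clones and 6736 to 7809 in the (−)/(+) clones, which overlapped. Afp, Ttr, Sox7, Foxa2 and Cubn were below the filter. Fibroblast markers were lower where Krt8 and Krt18 were higher and where Krt19 was lower, and their part in these differences was not tested. In bulk RNA, fewer cells of a type and less RNA per cell cannot be told apart. The 5 markers of the trophectoderm itself (Cdx2, Eomes, Gata3, Elf5 and Krt7) summed to 453 to 561 in the (+)/(+) clones and 500 to 751 in the (−)/(+) clones, which overlapped, and 3 of the 5 were below the filter in all their probe sets. Eomes made up most of these sums (350 ± 68.1 in (+)/(+) and 394 ± 132 in (−)/(+) clones). The Cdx2 probe set in them, below the filter, did not overlap (33.6 ± 25.6 in (+)/(+) and 82.8 ± 13.5 in (−)/(+) clones).

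The genes whose pattern over the 6 clones lay nearest to that of a member were found by the root mean square difference of log2 deviations, among all 11177 tested genes other than the member itself. For Krt8 (1420647_a_at) these were 6330415G19Rik (0.09), Snai3 (0.11), Macrod1 (0.11) and Dusp5 (0.11), a phosphatase of ERK. For Krt18 they were E330020D12Rik (0.15), Tdrp (0.18), Ufsp2 (0.18) and Gtf3c3 (0.20). For Krt19 they were Tnnt2 (0.23), Irak1 (0.24), Patj (0.24), a polarity protein of tight junctions, and Pla2g1b (0.25). The 3 sets of 4 genes have no gene in common, and Krt8 and Krt18 were not among each other's nearest 4.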

How the data were processed

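The authors hybridised biotin-labelled RNA of each clone to 1 Affymetrix Mouse Genome array and deposited linear MAS 5.0 signal intensities. On each array the mean of all values, less the top and bottom 2%, was 500.0. Probe-level files, presence calls and scan dates were not used here. The 45101 probe sets include 64 controls, which were dropped, and 34945 probe sets carry 1 gene symbol. Values were transformed to log2(signal + 16), and the 22518 probe sets whose mean exceeded the median were tested in R 4.3.3 with limma 3.58.1 (lmFit, eBayes with trend), on group alone, with Benjamini-Hochberg adjustment over all of them. In lists, a gene stands by its brightest own probe set. On simulated data with 200 changed of 22518 probe sets, 0% of 1.5-fold, 57.5% of 2-fold and 87% of 3-fold changes were recovered. In the data themselves 703 probe sets passed, and recovery with more changed probe sets than 200 was not simulated.

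Members, lists and markers were chosen with earlier results of these data known. Named are all members, up to 4 called genes per list by adjusted p or else up to 3 by signal, and for Krt8, Krt18 and Krt19 the 4 nearest genes. Any other gene is marked as picked with its values in view. Promoter windows (7 of 10 members) and gene positions came from RefSeq (GRCm38.p6). Results were recomputed on quantile-normalized values, with arrays brought to a common median, with a pseudocount of 1 or 64, without the filter or with a signal minimum of 500 in its place, with eBayes but no trend, with arrayWeights, with all probe sets of a gene averaged, with the methods' t-test, and leaving out each clone. Leaving out each clone without the filter, for members below it, was added after the data were seen. Python 3.11.15 with matplotlib 3.10.9 drew the figures.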

Additional observations from a re-analysis of the deposited data

How the results depend on the processing

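The number of member probe sets passing higher was 0, and became 3 with a common median, 2 with arrayWeights, 2 with the methods' t-test at an unadjusted p under 0.05 and 0 to 2 when single clones were left out (2 without (−)/(+) clone 1). Of all tested probe sets, 4.07% passed higher with a common median, 4.51% with arrayWeights and 6.98% with that t-test. Without single clones 0.12% to 1.98% did, with 1.98% without clone 1. The number of members passing higher was 0 in the other settings, and the number passing lower was 0 in all of them. These counts leave out the runs with a single clone left out and no filter. There Tead4 1460683_at passed lower without clone 1. Of the probe sets that passed in either direction, 79.4% were higher with a common median (917 higher and 238 lower). As scaled by the authors this share of the calls was 43.4% (305 and 398). Quantile normalization gave 53.0%, a mean signal above 500 gave 56.6%, and eBayes without trend 32.8%. Among the other trophectoderm genes 3 passed higher with a common median (4.07% of all tested probe sets), and with arrayWeights 2 passed higher and 1 lower. With arrayWeights 5 Hippo and 4 junction genes passed lower, in a setting in which 6.71% of all tested probe sets passed lower and 4.51% higher. Without clone 1, 3 junction genes and 2 other trophectoderm genes passed lower, and without clone 2, 1 Hippo gene passed lower and 1 other trophectoderm gene higher. Of all 22518 tested probe sets, 515 passed lower without clone 1, and 209 passed lower and 151 higher without clone 2.

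Estimates near 0 changed sign. With a common median the log2 fold change was 0.018 and 0.094 for Eomes 1426001_at and 1435172_at, 0.065 and 0.15 for Tfap2c 1418147_at and 1448977_at, 0.12 for Atp1b1, 0.11 for Stk4, 0.085 for Yap1, 0.092 for both Krt42 and Tjp1, and 0.12 for Pou5f1. Quantile normalization gave 0.038 for Eomes 1435172_at, 0.033 for Tfap2c 1448977_at and −0.020 for Sox2. With arrayWeights Tfap2c 1418147_at was at 0.13, 1448977_at at 0.15 and Krt79 at −0.036, and the mean of all probe sets put both of these Tfap2c probe sets at 0.048. Leaving out single clones, Eomes spanned −0.30 to 0.11 and −0.27 to 0.25 on its 2 probe sets, Tfap2c 1418147_at −0.27 to 0.028 and 1448977_at −0.12 to 0.12, Atp1b1 −0.12 to 0.064, Aqp3 −0.10 to 0.19, Esrrb −0.37 to 0.026, Krt42 −0.23 to 0.082, Krt10 −0.045 to 0.24, Krt79 −0.13 to 0.15 and Pou5f1 −0.11 to 0.036. The cause was not tested. No paired analysis was possible because the groups have no clone number in common.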
